A study of Mus musculus with 8 samples.

Results

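The 42 genes described here make up the pathway by which cells turn glucose into pyruvate and lactate (glycolysis, with its transporters and kinases), 4 enzymes of the pentose phosphate pathway, and genes of the cellular response to low oxygen (hypoxia). They were taken by gene symbol from a list of the pathways, and all 42 were found among the 24346 genes of the table. The phosphofructokinase gene *Pfkl* was left out of the list because it lies beside *Dnmt3l*. RNA came from mesenchymal stem/stromal cells (MSCs), plastic-adherent marrow cells with the ability to become bone, fat or cartilage, of C57BL/6 mice. KO mice were homozygous for the tmEnls allele of *Dnmt3l*, a relative of the DNA methyltransferases that is active mainly in embryonic stem and germ cells, and carried it in every tissue from conception, while WT mice were *Dnmt3l*+/+ littermates. For each genotype, cells of 3 mice aged 8 to 16 weeks were mixed, and all libraries were made at passage 4. Undifferentiated MSCs of either genotype were kept in medium with 20% serum, and differentiating MSCs of either genotype had spent 3 days in osteogenic medium with 10% serum, 0.1 µM dexamethasone, 10 mM beta-glycerophosphate and 50 µM ascorbate 2-phosphate. Each of the 4 groups, undifferentiated WT, undifferentiated KO, differentiating WT and differentiating KO, has 2 libraries.

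Glycolysis splits glucose into pyruvate, which is either oxidised in mitochondria or reduced to lactate and exported, and the pentose phosphate pathway diverts glucose 6-phosphate to make NADPH and ribose. Both routes serve growing cells, and cultured MSCs are known to rely strongly on glycolysis, whereas osteogenic differentiation is accompanied by a shift in the use of glucose and mitochondria. In low oxygen the alpha subunits of the hypoxia-inducible factors (HIF) escape the prolyl hydroxylases that mark them for destruction, bind DNA with their partner ARNT at sites with the core ACGTG or GCGTG, and raise the transcription of most genes of glycolysis, of *Slc16a3* and *Pdk1*, and of other targets such as *Bnip3* and *Ankrd37*.

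Values are RPKM, reads per kilobase of transcript and per M mapped reads, so they can be compared between genes as levels per length, but they are shares of the RNA sequenced in a library and give no amount per cell. In bulk RNA, fewer cells of a type and less RNA per cell cannot be told apart. Differences between groups are log2 fold changes on the log2(RPKM + 0.1) scale, given with their standard error (SE), from a linear model of the 4 groups fitted with limma to 15342 genes whose mean reached 0.1 RPKM, all 42 included. A gene is called higher or lower where its p-value, adjusted by Benjamini-Hochberg over the 15342 genes, was under 0.05, and it is a differentially expressed gene (DEG) where its log2 fold change was also above 1 or below -1. Linear folds are ratios of mean RPKM. Whether the libraries within a group stem from separate cultures is not in the labels, so p-values measure only the spread between these libraries, which may be technical. It is also not given whether a genotype is represented by more than a single mix of mice. Differences between genotypes therefore cannot be told apart from differences between the mixes or their cultures. The inducers cannot be told apart from the lower serum and the confluent growth of the induced cells.

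As a check of the labels, *Dnmt3l* was listed at 0 in all 4 KO libraries and between 0.830 and 1.56 RPKM in the WT libraries. A 0 in this table can also be a failed estimate, since *Actb*, an actin gene of every cell, has 0 in each undifferentiated KO library, but none of the 42 genes was listed at 0 in a library. Depth, read from the steps in which low values come, was 48.4 to 67.0 M scaled reads, most in differentiating WT replicate 1. At this depth the lowest value of the 42 genes, 0.0791 RPKM for *Car9* in a differentiating KO library, was above the level that 3 reads would give for that gene (at most 0.0341 RPKM, counting error only). The pair of differentiating KO libraries was the least alike, with a median absolute log2 difference of 0.096 per gene against 0.045 to 0.061 in the other groups. The mesenchymal markers *Pdgfra*, *Pdgfrb*, *Thy1*, *Eng*, *Nt5e*, *Ly6a*, *Vcam1* and *Lepr* were present in every library.

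The promoters of these genes were searched for the core letters of the HIF site. RefSeq start sites (GRCm38.p6) were held for 38 of the 42 genes, all but *Slc2a3*, *Slc2a4*, *Epas1* and *Ndrg1*, in 53 windows of 250 bases before a start site. The letters ACGTG or GCGTG, searched on both strands so that CACGTG counts on each, were found in 42 of these 53 windows (79.2%) and in 12679 of all 32851 windows of the same length (38.6%). ACGTG alone was found in 43.4% of the windows of these genes and in 16.6% of all windows. Base composition was not taken into account, and a match is a description of the letters and not a sign of binding. The windows below belong to the 4 genes that were most lowered in undifferentiated KO MSCs, to *Ldha* as an enzyme gene with repeated cores, and to *Adm*, which went the other way. Each is written 5′ to 3′ on the strand of its gene and ends at the base before the start site, with ACGTG or GCGTG or their reverse complements in capitals.
*Slc16a3* (chr11:120948817-120949066, plus strand): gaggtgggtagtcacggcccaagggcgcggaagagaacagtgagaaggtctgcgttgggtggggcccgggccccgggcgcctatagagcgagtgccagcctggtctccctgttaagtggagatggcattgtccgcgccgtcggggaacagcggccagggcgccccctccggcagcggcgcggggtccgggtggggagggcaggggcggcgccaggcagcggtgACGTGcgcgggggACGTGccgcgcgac
*Pdk1* (chr2:71872974-71873223, plus strand): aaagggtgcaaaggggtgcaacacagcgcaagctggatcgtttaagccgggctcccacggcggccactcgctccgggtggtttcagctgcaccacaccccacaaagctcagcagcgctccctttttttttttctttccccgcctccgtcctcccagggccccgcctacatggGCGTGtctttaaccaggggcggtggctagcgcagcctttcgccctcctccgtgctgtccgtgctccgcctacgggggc
*Bnip3* (chr7:138909507-138909756, minus strand): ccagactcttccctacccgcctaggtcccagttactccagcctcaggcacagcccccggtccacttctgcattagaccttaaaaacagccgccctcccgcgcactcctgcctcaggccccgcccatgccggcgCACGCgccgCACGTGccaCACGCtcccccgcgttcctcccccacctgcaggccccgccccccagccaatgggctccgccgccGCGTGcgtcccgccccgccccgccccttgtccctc
*Ankrd37* (chr8:45999851-46000100, minus strand): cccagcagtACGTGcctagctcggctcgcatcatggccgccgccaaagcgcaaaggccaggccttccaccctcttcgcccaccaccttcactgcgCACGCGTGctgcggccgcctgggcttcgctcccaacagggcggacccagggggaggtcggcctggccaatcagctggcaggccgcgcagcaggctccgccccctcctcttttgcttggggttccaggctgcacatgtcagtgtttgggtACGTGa
*Ldha* (chr7:46845554-46845803, plus strand): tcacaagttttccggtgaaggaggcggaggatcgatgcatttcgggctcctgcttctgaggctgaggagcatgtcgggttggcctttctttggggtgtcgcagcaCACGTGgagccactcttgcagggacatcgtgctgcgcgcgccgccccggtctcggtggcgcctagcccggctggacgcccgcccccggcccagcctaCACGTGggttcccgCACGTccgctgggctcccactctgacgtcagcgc
*Adm* (chr7:110627407-110627656, plus strand): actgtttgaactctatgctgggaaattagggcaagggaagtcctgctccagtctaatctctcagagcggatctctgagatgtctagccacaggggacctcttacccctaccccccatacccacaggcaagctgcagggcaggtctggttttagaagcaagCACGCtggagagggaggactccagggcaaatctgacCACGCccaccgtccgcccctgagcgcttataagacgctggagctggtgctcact
The *Slc16a3* window holds the core 2 times close to the start site, *Pdk1* holds it once, *Ankrd37* 4 times, and *Bnip3* and *Ldha* 5 times each, counting both strands. *Adm*, which was higher in KO MSCs, holds it 2 times. Where a gene had more than a single window, the window nearest its annotated start is shown. *Pdk1* and *Ldha* each have another window, not shown, with 0 and 1 cores.

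In undifferentiated MSCs, most of these genes had lower RNA in KO than in WT MSCs. Of the 42 genes, 23 were lower and 3 higher in KO than in WT MSCs, and 16 did not pass the test, while 17.5% of all tested genes were lower and 14.7% higher. The 5 DEGs, *Slc16a3*, *Pdk1*, *Bnip3*, *Ankrd37* and *Ndrg1*, were all lower, and among all genes 1.09% were DEGs with lower and 0.613% with higher RNA in KO MSCs. The 3 higher genes were *G6pdx* and *Pgd*, the NADPH-producing enzymes of the pentose phosphate pathway, and *Adm*. The median log2 fold change of the 42 genes was -0.26, against -0.0027 over all genes.

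In differentiating MSCs the genotypes differed in both directions. Of the 42 genes, 19 were lower and 8 higher in KO than in WT MSCs, beside 22.9% and 17.8% of all tested genes, and 15 did not pass. The only DEG was *Ndrg1*, which was higher, where 1.36% of all genes were DEGs with higher and 1.95% with lower RNA. The median log2 fold change was -0.16, against -0.0067 over all genes. The comparisons in the undifferentiated and the differentiating state share no library, but both use the spread estimated over all libraries. Cells of a genotype may also come from the same mix of mice in both states, so the comparisons are not independent. Of the 23 genes that were lower in undifferentiated KO MSCs, 10 were also lower in differentiating KO MSCs, 10 did not pass there, and 3, *Bnip3*, *Ndrg1* and *Pdk4*, were higher. *Pgd* was higher in the undifferentiated and lower in the differentiating state, and *G6pdx* and *Adm* were higher in both. With only the 4 differentiating libraries in the fit, 14 of the 42 genes passed in place of 27, and without differentiating WT replicate 2 the count was 16.

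**Figure D1:**
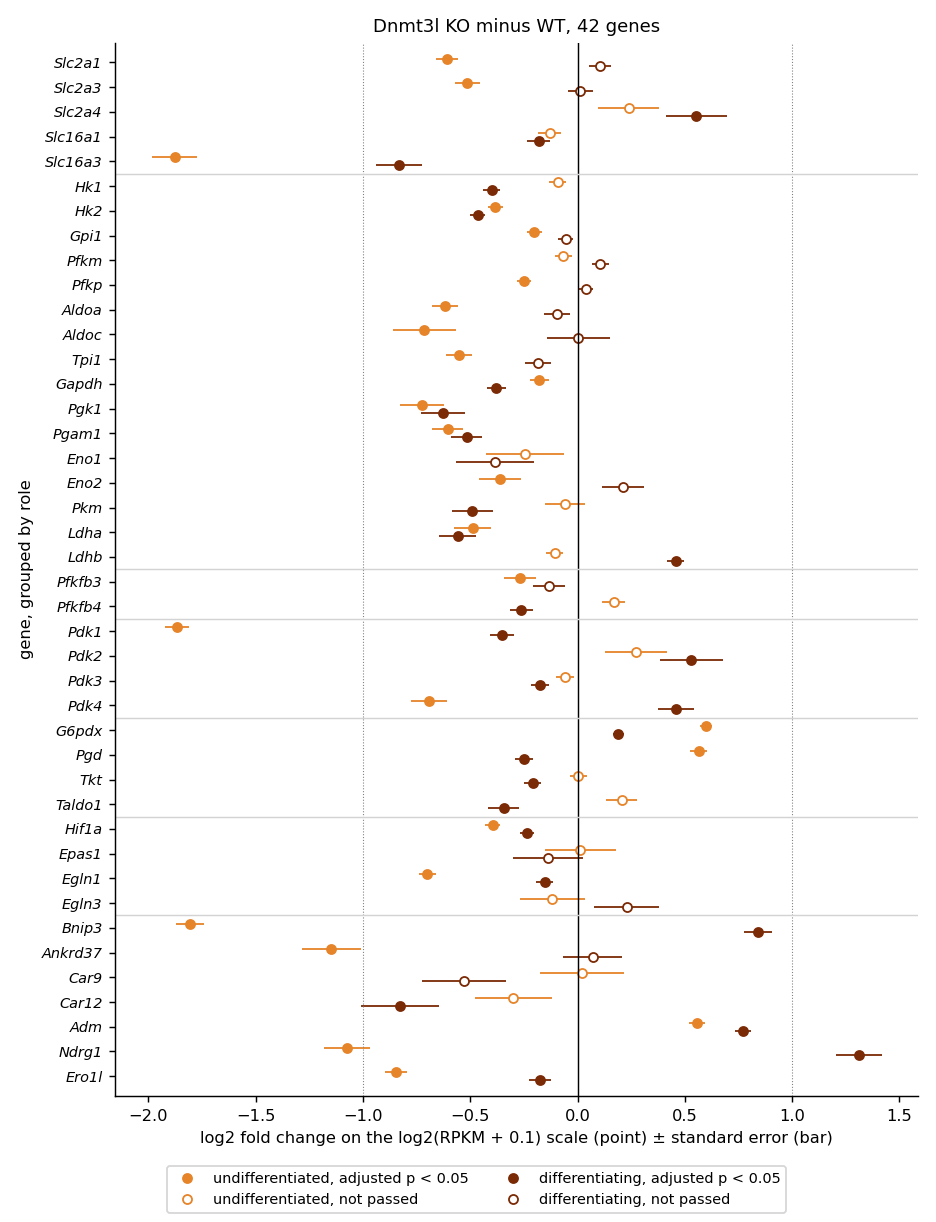
Log2 fold change of KO against WT MSCs for each of the 42 genes (rows, grouped by role), with 2 libraries per group; points are estimates on the log2(RPKM + 0.1) scale, bars are SE, filled points passed an adjusted p-value under 0.05, and dotted lines mark -1 and 1. In undifferentiated MSCs *Slc16a3*, *Pdk1* and *Bnip3* lie lowest, between -1.88 and -1.81, and in differentiating MSCs *Ndrg1* lies highest at 1.31.

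Osteogenic induction moved nearly all of these genes. In WT MSCs 26 fell and 11 rose, beside 32.8% and 31.6% of all tested genes, and in KO MSCs 26 fell and 14 rose, beside 36.6% and 36.4%. DEGs numbered 15 that fell and 5 that rose in WT MSCs, where 4.63% and 9.69% of all genes were DEGs in those directions, and 11 that fell and 8 that rose in KO MSCs, where the shares were 9.87% and 13.0%. The genes that fell in both genotypes, 24 in all, included *Slc16a3*, *Slc2a1*, *Hk2*, *Ldha*, *Gapdh*, *Pgk1*, *Ero1l* and *Hif1a*. The 10 that rose in both were *Slc2a3*, *Slc2a4*, *Pfkp*, *Ldhb*, *Pdk2*, *Pdk4*, *G6pdx*, *Epas1*, *Adm* and *Ndrg1*. The median log2 fold change was -0.66 in WT and -0.57 in KO MSCs, against 0.0000 and -0.0001 over all genes.

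**Figure D2:**
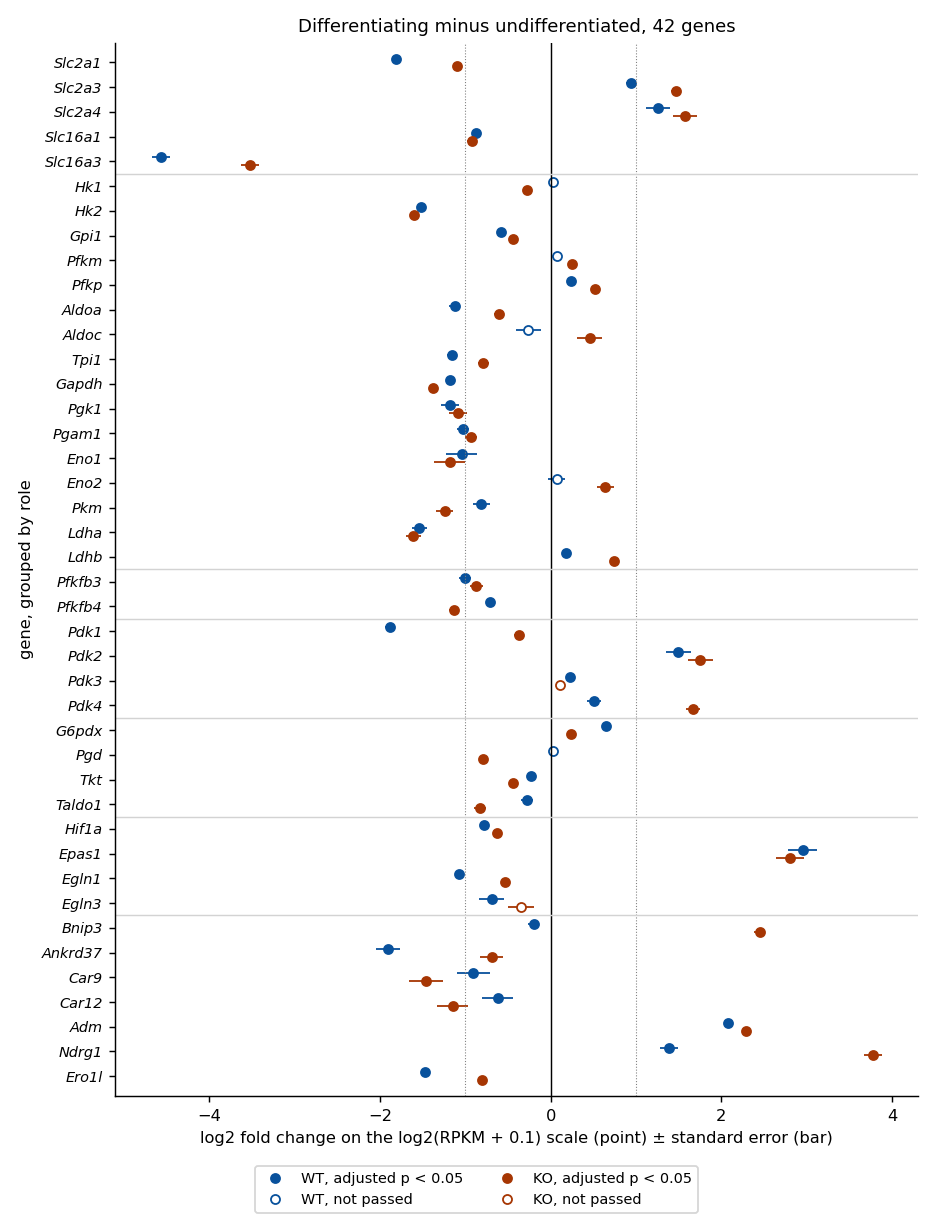
Log2 fold change of differentiating against undifferentiated MSCs for the 42 genes in WT (blue) and KO (red) MSCs, with points, bars, filling and dotted lines as log2 estimates, SE, adjusted p-value under 0.05 and -1 and 1. *Slc16a3* fell most in both genotypes (-4.57 in WT, -3.52 in KO), and *Bnip3* and *Ndrg1* lie far apart between the genotypes.

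The test of the difference between the genotypes' responses to induction (the interaction, positive where KO minus WT was larger in differentiating MSCs) passed for 26 of the 42 genes. It was positive for 18 and negative for 8, beside 19.4% and 20.0% of all tested genes. It exceeded 1 for 6 genes, *Bnip3*, *Ndrg1*, *Pdk1*, *Ankrd37*, *Pdk4* and *Slc16a3*, and was below -1 for none, where 2.76% and 3.42% of all genes did so with an adjusted p-value under 0.05. All 4 pentose phosphate genes were among the 8 with a negative interaction, and the other 4 were *Hk1*, *Gapdh*, *Pkm* and *Pfkfb4*. The 8 negative interactions became 5 without a variance trend, and also when any 1 of the 4 undifferentiated libraries or differentiating WT replicate 2 was left out, and the interactions of *Gapdh*, *Pkm* and *Tkt* no longer passed in those settings.

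**Figure D3:**
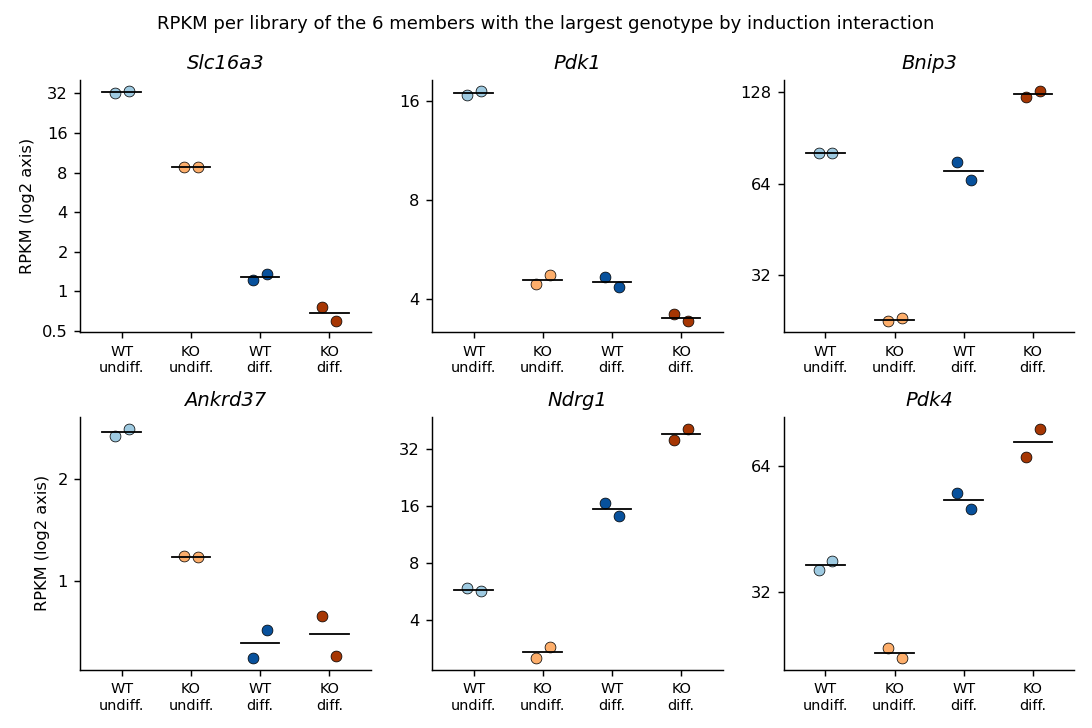
RPKM of the 6 genes with an interaction above 1, on log2 axes that differ between panels; points are the 8 libraries and lines the group means. *Bnip3*, *Ndrg1* and *Pdk4* lie below WT in undifferentiated KO MSCs and above WT in differentiating KO MSCs, whereas for *Slc16a3* and *Pdk1* the gap between genotypes narrows on the log2 axis and keeps its direction.

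Among the genes of HIF alpha subunits and prolyl hydroxylases, *Hif1a*, which encodes the widespread HIF alpha subunit, was by far more abundant than *Epas1*, which encodes HIF-2 alpha. *Hif1a* was 149.9 and 148 RPKM in the undifferentiated WT libraries, 114 and 113 RPKM in undifferentiated KO, 85.7 and 87.1 RPKM in differentiating WT and 75.4 and 71.5 RPKM in differentiating KO libraries. It was lower in KO MSCs in both states (log2 fold change -0.39 ± 0.034, adjusted p = 0.00111 in undifferentiated and log2 fold change -0.24 ± 0.034, adjusted p = 0.00405 in differentiating MSCs), and it fell with induction in both genotypes, to a 1.72-fold lower level in WT MSCs. *Epas1* was 1.64 and 1.51 RPKM in WT and 1.61 and 1.56 RPKM in KO MSCs before induction, and 13.7 and 12.1 RPKM in WT and 9.77 and 13.9 RPKM in KO MSCs after it. It rose with induction in both genotypes (log2 fold change 2.95 ± 0.16, adjusted p = 2.54e-05 in WT and log2 fold change 2.80 ± 0.16, adjusted p = 1.72e-05 in KO MSCs), and its difference between genotypes did not pass in either state. The ratio of *Epas1* to *Hif1a* RPKM went from 0.0106 ± 0.000532 to 0.149 ± 0.0153 (SD, n = 2) in WT and from 0.0140 ± 0.000228 to 0.162 ± 0.0463 in KO MSCs, so *Hif1a* remained the more abundant. *Egln1*, the main prolyl hydroxylase acting on HIF, was at 21.1 and 21.9 RPKM in undifferentiated and 9.93 and 10.4 RPKM in differentiating WT MSCs, and at 13.3 and 13.1 RPKM in undifferentiated and 9.25 and 8.97 RPKM in differentiating KO MSCs. It was 1.63-fold lower in undifferentiated KO than WT MSCs (log2 fold change -0.70 ± 0.039, adjusted p = 0.000331), and its interaction was 0.55 ± 0.055, adjusted p = 0.00143. *Egln3*, a hydroxylase that is itself a HIF target, was low, between 0.337 and 0.701 RPKM, and it fell with induction in WT MSCs (log2 fold change -0.69 ± 0.15, adjusted p = 0.0078) but did not pass in any other comparison.

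The hypoxia targets outside glycolysis held 3 of the 5 DEGs between undifferentiated genotypes and the only DEG between differentiating ones. Among all tested genes, 1.09% were DEGs with lower RNA in undifferentiated and 1.36% DEGs with higher RNA in differentiating KO MSCs. *Bnip3*, which encodes a mitochondrial protein that marks mitochondria for removal, was 80.7 and 80.4 RPKM in the undifferentiated WT libraries, 22.7 and 23.2 RPKM in undifferentiated KO, 75.2 and 65.6 RPKM in differentiating WT and 123 and 128 RPKM in differentiating KO libraries. It was thus 3.51-fold lower in KO than WT MSCs before induction (log2 fold change -1.81 ± 0.065, adjusted p = 0.000102) and 1.79-fold higher after it (log2 fold change 0.84 ± 0.065, adjusted p = 0.000856), with no overlap of the groups. In KO MSCs *Bnip3* was 5.49-fold higher after than before induction (log2 fold change 2.45 ± 0.065, adjusted p = 1e-06). In WT MSCs the change was -0.20, and this small difference did not pass in 11 of 17 alternative settings. *Ndrg1*, a stress-response gene linked to hypoxia and to differentiation, was 5.89 and 5.67 RPKM in WT and 2.51 and 2.89 RPKM in KO MSCs before induction, and 16.5 and 14.2 RPKM in WT and 35.5 and 40.9 RPKM in KO MSCs after it. It was 2.14-fold lower in undifferentiated KO MSCs (log2 fold change -1.07 ± 0.11, adjusted p = 0.00165) and 2.49-fold higher in differentiating KO MSCs (log2 fold change 1.31 ± 0.11, adjusted p = 0.000933). It rose with induction in both genotypes (1.39 in WT and 3.78 in KO MSCs), and the interaction was 2.39 ± 0.15, adjusted p = 0.00056. The direction in the undifferentiated state kept passing the test in all 17 alternatives, but *Ndrg1* was no longer a DEG there with a pseudocount of 1 or without undifferentiated KO replicate 1, where the log2 fold changes were -0.88 and -0.98.

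*Ankrd37*, an ankyrin repeat gene known as a direct HIF target, was at 2.67 and 2.81 RPKM in undifferentiated and 0.595 and 0.721 RPKM in differentiating WT MSCs, and at 1.18 and 1.18 RPKM in undifferentiated and 0.793 and 0.605 RPKM in differentiating KO MSCs. It was lower in undifferentiated KO MSCs (log2 fold change -1.15 ± 0.14, adjusted p = 0.0029) and fell with induction in both genotypes, after which the difference did not pass (log2 fold change 0.07 ± 0.14, adjusted p = 0.72). Exons of *Ankrd37* overlap *Ufsp2* and *Lrp2bp* on the other strand, and with a pseudocount of 1 the undifferentiated difference was no longer a DEG. *Ero1l*, the oxidase that drives disulfide formation in the endoplasmic reticulum, was 45.6 and 46.1 RPKM in the undifferentiated WT libraries, 25.6 and 25.3 RPKM in undifferentiated KO, 16.3 and 16.6 RPKM in differentiating WT and 15.4 and 13.8 RPKM in differentiating KO libraries. It was 1.80-fold lower in undifferentiated KO MSCs (log2 fold change -0.85 ± 0.052, adjusted p = 0.000411) and differed by -0.17 after induction, a call lost in 10 of 17 alternative settings. *Adm*, the gene of the vasodilator peptide adrenomedullin, took a separate course at 58.3 and 59.5 RPKM in WT and 88.2 and 85.1 RPKM in KO MSCs before induction, and 247 and 249.5 RPKM in WT and 434 and 413 RPKM in KO MSCs after it. It was higher in KO MSCs in both states (log2 fold change 0.56 ± 0.037, adjusted p = 0.000509 in undifferentiated and log2 fold change 0.77 ± 0.037, adjusted p = 0.000331 in differentiating MSCs) and rose with induction in both genotypes (2.07 in WT and 2.29 in KO MSCs), so that all libraries of the 4 groups were separated. The membrane-bound carbonic anhydrases were low. *Car9* lay between 0.0791 and 0.528 RPKM and *Car12* between 0.214 and 0.917 RPKM, and neither passed the test between the undifferentiated genotypes (adjusted p = 0.95 and 0.25). Both fell with induction in WT and KO MSCs, with log2 fold changes of -0.91 and -1.46 for *Car9* and -0.62 and -1.15 for *Car12*. *Car12* was lower in differentiating KO than WT MSCs (log2 fold change -0.83 ± 0.18, adjusted p = 0.0147). This call and that of its fall in WT MSCs were each lost in 4 of 17 alternative settings, among them leaving out either differentiating WT library.

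Among the transporters, *Slc16a3*, which encodes the lactate exporter MCT4, had the largest differences of the 42 genes, beside *Pdk1*, between undifferentiated genotypes, and the largest with induction in WT MSCs. It was at 32.1 and 33.2 RPKM in undifferentiated and 1.21 and 1.35 RPKM in differentiating WT MSCs, and at 8.84 and 8.79 RPKM in undifferentiated and 0.763 and 0.596 RPKM in differentiating KO MSCs. Undifferentiated KO MSCs held 3.71-fold lower levels than WT MSCs (log2 fold change -1.88 ± 0.11, adjusted p = 0.000347), differentiating KO MSCs 1.89-fold lower levels (log2 fold change -0.83 ± 0.11, adjusted p = 0.00276), and differentiating WT MSCs 25.5-fold lower levels than undifferentiated ones (log2 fold change -4.57 ± 0.11, adjusted p = 1.27e-06). The groups did not overlap in any of these comparisons. The interaction of 1.05 passed the test in all 16 alternatives and was above 1 in 12 of them. *Slc16a1*, which encodes the two-way lactate carrier MCT1, was between 7.92 and 17.6 RPKM, did not pass the test in undifferentiated MSCs (log2 fold change -0.13 ± 0.053, adjusted p = 0.12) and fell with induction in both genotypes (-0.87 in WT and -0.93 in KO MSCs). The ratio of *Slc16a3* to *Slc16a1* RPKM was 1.87 ± 0.0105 (SD, n = 2) in undifferentiated WT and 0.553 ± 0.00928 in undifferentiated KO MSCs, and 0.136 ± 0.0131 and 0.0811 ± 0.00827 after induction. The exporter was thus the more abundant of the pair in undifferentiated WT MSCs alone.

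*Slc2a1*, the gene of the basal glucose transporter GLUT1, was 30.9 and 29.1 RPKM in the undifferentiated WT libraries, 19.6 and 19.7 RPKM in undifferentiated KO, 8.44 and 8.49 RPKM in differentiating WT and 8.73 and 9.51 RPKM in differentiating KO libraries. It was lower in undifferentiated KO MSCs (log2 fold change -0.61 ± 0.05, adjusted p = 0.000945), and after induction the difference did not pass the test (log2 fold change 0.11 ± 0.05, adjusted p = 0.15). *Slc2a3*, the gene of the high-affinity transporter GLUT3, was 1.72 and 1.76 RPKM in WT and 1.20 and 1.18 RPKM in KO MSCs before induction, and 3.57 and 3.29 RPKM in WT and 3.42 and 3.50 RPKM in KO MSCs after it. It was likewise lower in undifferentiated KO MSCs (log2 fold change -0.51 ± 0.059, adjusted p = 0.00255) and, unlike *Slc2a1*, rose with induction in both genotypes (0.94 in WT and 1.47 in KO MSCs). The ratio of *Slc2a1* to *Slc2a3* went from 17.2 ± 0.971 to 2.47 ± 0.155 (SD, n = 2) in WT and from 16.5 ± 0.219 to 2.64 ± 0.119 in KO MSCs, so that *Slc2a1* stayed the more abundant. *Slc2a4*, the gene of the insulin-responsive transporter GLUT4 of fat and muscle, was near the lower end at 0.0854 and 0.0892 RPKM in undifferentiated and 0.313 and 0.386 RPKM in differentiating WT MSCs, and at 0.119 and 0.123 RPKM in undifferentiated and 0.538 and 0.578 RPKM in differentiating KO MSCs. It rose with induction in both genotypes (log2 fold change 1.26 ± 0.14, adjusted p = 0.000499 in WT and log2 fold change 1.57 ± 0.14, adjusted p = 0.000116 in KO MSCs) and was higher in differentiating KO than WT MSCs (log2 fold change 0.55 ± 0.14, adjusted p = 0.0259). Adipocyte markers rose over the same step: all 6 of *Adipoq*, *Fabp4*, *Pparg*, *Cebpa*, *Plin1* and *Lpl* were higher after induction in both genotypes. The share of all tested genes that rose was 31.6% in WT and 36.4% in KO MSCs. The summed level of the 6 markers was 57.1 to 60.3 RPKM in undifferentiated and 419.9 to 423 RPKM in differentiating WT libraries, and 65.1 to 67.7 and 442 to 468 RPKM in the KO libraries. Their part in the rise of *Slc2a4* was not tested.

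The 16 enzyme genes of glycolysis differed in a single direction between undifferentiated genotypes, as far as they passed the test. KO MSCs had lower levels of 11 of them and a higher level of none, beside 17.5% lower and 14.7% higher of all tested genes. *Hk1*, *Pfkm*, *Eno1*, *Pkm* and *Ldhb* did not pass. Summed over the 16 genes, RNA came to 4601 ± 107 RPKM (SD, n = 2) in undifferentiated WT, 3499 ± 20 RPKM in undifferentiated KO, 2198 ± 97.7 RPKM in differentiating WT and 1711 ± 161 RPKM in differentiating KO MSCs. In differentiating MSCs 7 of the 16 genes were lower in KO, 1 was higher and 8 did not pass, beside 22.9% lower and 17.8% higher of all tested genes. With induction 10 of the 16 fell in WT and 11 in KO MSCs, beside 32.8% and 36.6% of all tested genes, and 2 rose in WT and 5 in KO MSCs, where 31.6% and 36.4% of all genes did.

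At the entry of the pathway, *Hk2*, the hexokinase that HIF and growth signals induce, was 22.3 and 22.8 RPKM in the undifferentiated WT libraries, 17.1 and 17.4 RPKM in undifferentiated KO, 7.73 and 7.91 RPKM in differentiating WT and 5.74 and 5.54 RPKM in differentiating KO libraries. It fell with induction in both genotypes (-1.52 in WT and -1.60 in KO MSCs) and was lower in KO MSCs in both states (log2 fold change -0.38 ± 0.035, adjusted p = 0.00126 in undifferentiated and log2 fold change -0.46 ± 0.035, adjusted p = 0.00082 in differentiating MSCs). The constitutive hexokinase gene *Hk1* was 24.1 and 25.2 RPKM in WT and 23.1 and 23.1 RPKM in KO MSCs before induction, and 24.8 and 25.5 RPKM in WT and 19.6 and 18.6 RPKM in KO MSCs after it, a level that was lower in KO MSCs after induction (log2 fold change -0.40 ± 0.04, adjusted p = 0.0014) and did not pass before it (log2 fold change -0.093 ± 0.04, adjusted p = 0.13). Together the pair shifted from a *Hk2* to *Hk1* ratio of 0.915 ± 0.0132 (SD, n = 2) to 0.311 ± 0.0011 in WT and from 0.748 ± 0.00902 to 0.296 ± 0.00349 in KO MSCs. *Gpi1*, the isomerase of the next step, lay between 70.2 and 112 RPKM, was slightly lower in undifferentiated KO MSCs (log2 fold change -0.20 ± 0.034, adjusted p = 0.00846) and fell with induction in both genotypes. The phosphofructokinase genes *Pfkp* and *Pfkm* did not fall with induction, and *Pfkl* was not part of the list. *Pfkp* was at 21.1 and 21.4 RPKM in undifferentiated and 25.2 and 24.9 RPKM in differentiating WT MSCs, and at 17.7 and 18.1 RPKM in undifferentiated and 26.3 and 25.1 RPKM in differentiating KO MSCs, lower in undifferentiated KO MSCs (log2 fold change -0.25 ± 0.034, adjusted p = 0.00425) and raised by induction in both genotypes (0.23 in WT and 0.52 in KO MSCs). *Pfkm*, between 15.7 and 19.3 RPKM, did not pass the test between genotypes in either state and rose with induction in KO MSCs (log2 fold change 0.25 ± 0.041, adjusted p = 0.00179), a response whose difference from WT did not pass (adjusted p = 0.0579).

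In the middle of the pathway, *Aldoa*, the main aldolase gene, was 773 and 804 RPKM in the undifferentiated WT libraries, 506 and 522 RPKM in undifferentiated KO, 355 and 367 RPKM in differentiating WT and 357 and 319.7 RPKM in differentiating KO libraries. It was 1.53-fold lower in undifferentiated KO MSCs (log2 fold change -0.62 ± 0.062, adjusted p = 0.00163), fell with induction in both genotypes and then did not pass the test (log2 fold change -0.097 ± 0.062, adjusted p = 0.26). *Tpi1*, the triosephosphate isomerase gene, showed the same order at 379.6 and 389 RPKM in WT and 261 and 264 RPKM in KO MSCs before induction, and 168 and 178 RPKM in WT and 161 and 144 RPKM in KO MSCs after it, with a difference of -0.55 between undifferentiated genotypes (adjusted p = 0.00219) and -0.19 between differentiating ones (adjusted p = 0.0528). *Pgk1* and *Pgam1*, the genes of phosphoglycerate kinase and mutase, were lower in KO MSCs in both states. *Pgk1* ranged from 137 to 539.8 RPKM and had log2 fold changes of -0.72 and -0.63 in undifferentiated and differentiating MSCs (adjusted p = 0.00484 and 0.00599). *Pgam1* ranged from 137 to 434 RPKM and had -0.61 and -0.52 (adjusted p = 0.00264 and 0.00336). *Gapdh*, often used to normalise other genes, was at 459 and 448 RPKM in undifferentiated and 200.5 and 201 RPKM in differentiating WT MSCs, and at 395 and 407 RPKM in undifferentiated and 159.7 and 149 RPKM in differentiating KO MSCs. It fell with induction in both genotypes (-1.18 in WT and -1.38 in KO MSCs) and was lower in differentiating KO MSCs (log2 fold change -0.38 ± 0.044, adjusted p = 0.00215), while the small difference in undifferentiated MSCs (-0.18) did not pass in 8 of 17 alternative settings. The minor aldolase gene *Aldoc* was 0.263 and 0.299 RPKM in the undifferentiated WT libraries, 0.134 and 0.130 RPKM in undifferentiated KO, 0.241 and 0.196 RPKM in differentiating WT and 0.216 and 0.220 RPKM in differentiating KO libraries, at most 0.000688 of the *Aldoa* level in a library, and was lower in undifferentiated KO MSCs (log2 fold change -0.71 ± 0.15, adjusted p = 0.0156).

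At the end of the pathway, *Pkm*, the pyruvate kinase gene and by its mean over all libraries the most abundant of the 42, was 956 and 994 RPKM in WT and 939 and 932 RPKM in KO MSCs before induction, and 532 and 578 RPKM in WT and 434 and 359 RPKM in KO MSCs after it. It did not pass the test in undifferentiated MSCs (log2 fold change -0.059 ± 0.095, adjusted p = 0.68), and was lower in differentiating KO MSCs (log2 fold change -0.49 ± 0.095, adjusted p = 0.0102). *Ldha*, which encodes the lactate dehydrogenase subunit that favours lactate formation, was at 749.9 and 783 RPKM in undifferentiated and 249.6 and 278 RPKM in differentiating WT MSCs, and at 546 and 546 RPKM in undifferentiated and 193 and 166 RPKM in differentiating KO MSCs. It was lower in KO MSCs in both states (log2 fold change -0.49 ± 0.086, adjusted p = 0.00946 in undifferentiated and log2 fold change -0.56 ± 0.086, adjusted p = 0.0048 in differentiating MSCs) and fell with induction in both genotypes (-1.54 in WT and -1.61 in KO MSCs). *Ldhb*, the gene of the subunit that favours pyruvate, ran the other way at 15.4 and 15.7 RPKM in the undifferentiated WT libraries, 14.1 and 14.8 RPKM in undifferentiated KO, 17.8 and 17.4 RPKM in differentiating WT and 23.7 and 24.8 RPKM in differentiating KO libraries. It rose with induction in both genotypes (0.18 in WT, a call lost with median centring, and 0.74 in KO MSCs) and was higher in differentiating KO MSCs (log2 fold change 0.46 ± 0.038, adjusted p = 0.000975), the single enzyme gene of glycolysis that was. The ratio of *Ldhb* to *Ldha* RPKM was 0.0203 ± 0.000381 (SD, n = 2) and 0.0265 ± 0.000855 in undifferentiated WT and KO MSCs, and 0.0670 ± 0.00621 and 0.136 ± 0.0189 after induction. *Eno1*, the main enolase gene, differed within groups (50.0 and 68.2 RPKM in the undifferentiated WT libraries), and its differences between genotypes did not pass (log2 fold change -0.24 ± 0.18, adjusted p = 0.35 before and log2 fold change -0.38 ± 0.18, adjusted p = 0.14 after induction). It shares sequence with the retrogene *Eno1b*, so that its counting is uncertain. *Eno1* fell with induction in both genotypes (-1.04 in WT and -1.18 in KO MSCs). *Eno2*, the neuronal enolase gene, was low at 3.29 and 2.74 RPKM in WT and 2.33 and 2.31 RPKM in KO MSCs before induction, and 3.29 and 3.04 RPKM in WT and 3.50 and 3.86 RPKM in KO MSCs after it, and it rose with induction in KO MSCs (log2 fold change 0.64 ± 0.099, adjusted p = 0.00132, interaction 0.57 ± 0.14, adjusted p = 0.0222).

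**Figure D4:**
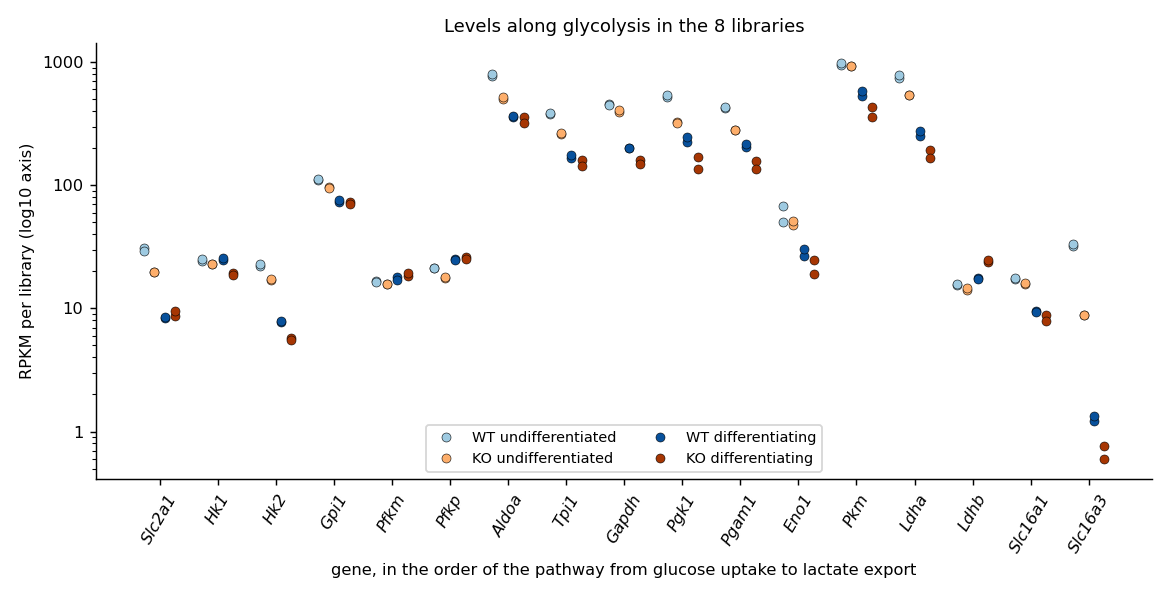
RPKM of each library (log10 axis) for the transporter and main enzyme genes, ordered from glucose uptake on the left to lactate export on the right, in the 4 groups. From *Aldoa* to *Ldha* the differentiating libraries lie below the undifferentiated ones, while *Hk1*, *Pfkm*, *Pfkp* and *Ldhb* do not show this order, and *Slc16a3* spans the widest range, from 33.2 to 0.596 RPKM.

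The bifunctional enzymes that set the level of the activator of phosphofructokinase were of modest abundance. *Pfkfb4* was at 9.31 and 9.44 RPKM in undifferentiated and 5.71 and 5.68 RPKM in differentiating WT MSCs, and at 10.8 and 10.3 RPKM in undifferentiated and 4.94 and 4.53 RPKM in differentiating KO MSCs, with a genotype difference of 0.17 before induction (adjusted p = 0.0556) and -0.26 after it (adjusted p = 0.0113), and an interaction of -0.43 ± 0.074, adjusted p = 0.00692. *Pfkfb3*, between 1.45 and 3.59 RPKM, was lower in undifferentiated KO MSCs (log2 fold change -0.27 ± 0.074, adjusted p = 0.0397), a call lost in 8 of 17 alternative settings. Both genes fell with induction in WT and KO MSCs, with log2 fold changes of -1.01 and -0.87 for *Pfkfb3* and -0.71 and -1.14 for *Pfkfb4*.

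The pyruvate dehydrogenase kinases, which switch off the entry of pyruvate into mitochondrial oxidation, changed in composition. *Pdk1*, a well-known HIF target, was 16.8 and 17.2 RPKM in the undifferentiated WT libraries, 4.43 and 4.72 RPKM in undifferentiated KO, 4.68 and 4.35 RPKM in differentiating WT and 3.59 and 3.43 RPKM in differentiating KO libraries. It was 3.71-fold lower in undifferentiated KO than WT MSCs (log2 fold change -1.87 ± 0.056, adjusted p = 4.74e-05), and the values of undifferentiated KO and differentiating WT libraries overlapped. *Pdk1* fell with induction in both genotypes (log2 fold change -1.89 in WT and -0.37 in KO MSCs), and the interaction was 1.51 ± 0.079, adjusted p = 0.000364. *Pdk4*, a kinase raised by fasting and glucocorticoids, was 36.0 and 38.0 RPKM in WT and 23.5 and 22.2 RPKM in KO MSCs before induction, and 55.1 and 50.5 RPKM in WT and 67.1 and 78.4 RPKM in KO MSCs after it. It was lower in KO MSCs before induction (log2 fold change -0.69 ± 0.084, adjusted p = 0.00294) and higher after it (log2 fold change 0.46 ± 0.084, adjusted p = 0.00853), and rose with induction in both genotypes (0.51 in WT and 1.66 in KO MSCs). *Pdk2* rose as well, at 1.23 and 1.05 RPKM in undifferentiated and 3.69 and 3.12 RPKM in differentiating WT MSCs, and at 1.28 and 1.53 RPKM in undifferentiated and 4.50 and 5.44 RPKM in differentiating KO MSCs, with log2 fold changes of 1.5 in WT and 1.75 in KO MSCs. *Pdk3* lay between 33.0 and 40.7 RPKM in all libraries. Summed, the 4 genes came to 89.6 ± 2.79 RPKM (SD, n = 2) in undifferentiated WT, 61.9 ± 0.384 RPKM in undifferentiated KO, 101 ± 4.38 RPKM in differentiating WT and 117 ± 6.86 RPKM in differentiating KO MSCs. The share of *Pdk1* in this sum was 18.9 ± 0.244% in undifferentiated WT and 7.39 ± 0.375% in undifferentiated KO MSCs, and 4.46 ± 0.0393% and 3.00 ± 0.272% after induction. The share of *Pdk4* was 41.3 ± 0.223% and 36.9 ± 1.22% before and 52.2 ± 0.969% and 62.1 ± 3.18% after induction in WT and KO MSCs.

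**Figure D5:**
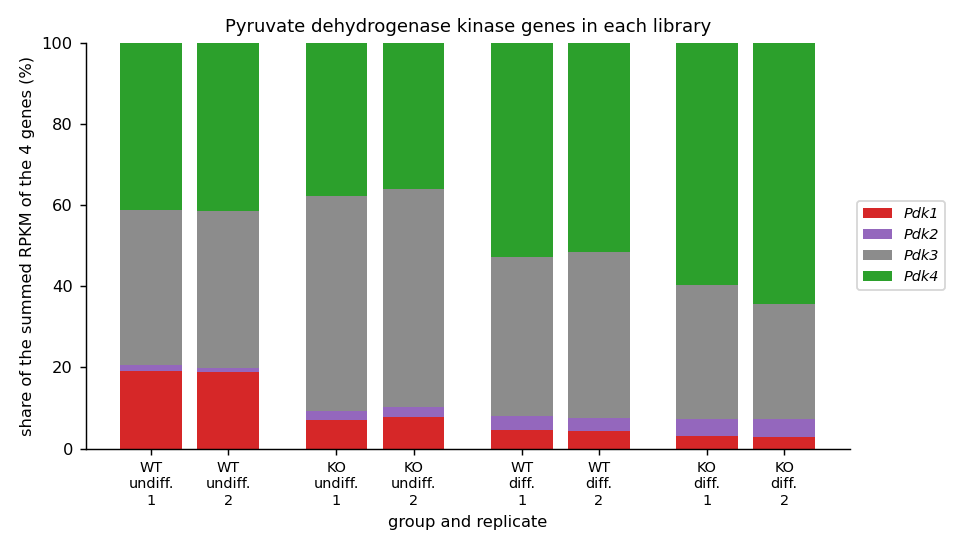
Share of each pyruvate dehydrogenase kinase gene in the summed RPKM of the 4 genes (stacked bars, percent), for each of the 8 libraries. The share of *Pdk1* is 19.1% and 18.8% in the undifferentiated WT libraries and at most 7.66% in the others, and that of *Pdk4* reaches 64.3% in a differentiating KO library.

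Of the 4 pentose phosphate genes, 2 were higher and none lower in undifferentiated KO MSCs, and 1 was higher and 3 lower in differentiating KO MSCs. The shares of all tested genes were 14.7% higher and 17.5% lower in undifferentiated, and 17.8% higher and 22.9% lower in differentiating KO MSCs. *G6pdx*, which encodes the enzyme of the first and rate-limiting step and makes NADPH, was 33.0 and 33.2 RPKM in the undifferentiated WT libraries, 50.1 and 50.2 RPKM in undifferentiated KO, 52.6 and 51.5 RPKM in differentiating WT and 58.8 and 60.1 RPKM in differentiating KO libraries. It was 1.52-fold higher in undifferentiated KO MSCs (log2 fold change 0.60 ± 0.027, adjusted p = 0.000193), also higher after induction (log2 fold change 0.19 ± 0.027, adjusted p = 0.00365; interaction -0.41 ± 0.038, adjusted p = 0.00118), and rose with induction in both genotypes. *Pgd*, the gene of the other NADPH-producing step, was 22.8 and 22.1 RPKM in WT and 32.6 and 33.8 RPKM in KO MSCs before induction, and 23.3 and 22.2 RPKM in WT and 18.8 and 19.5 RPKM in KO MSCs after it. It was 1.48-fold higher in undifferentiated KO MSCs (log2 fold change 0.56 ± 0.041, adjusted p = 0.000617) and lower in differentiating KO MSCs (log2 fold change -0.25 ± 0.041, adjusted p = 0.00579), and it fell with induction in KO MSCs (-0.79) and changed by 0.023 in WT MSCs (adjusted p = 0.64). *Tkt* and *Taldo1*, the genes of the sugar-exchanging steps that need no NADP, did not pass the test in undifferentiated MSCs (adjusted p = 0.96 and 0.0821). *Tkt* was at 81.7 and 84.3 RPKM in undifferentiated and 69.3 and 71.9 RPKM in differentiating WT MSCs, and at 83.4 and 83.0 RPKM in undifferentiated and 62.8 and 59.3 RPKM in differentiating KO MSCs. *Taldo1* was 97.2 and 102 RPKM in the undifferentiated WT libraries, 115 and 115 RPKM in undifferentiated KO, 80.4 and 83.9 RPKM in differentiating WT and 69.8 and 59.9 RPKM in differentiating KO libraries. Both were lower in differentiating KO than WT MSCs (log2 fold change -0.21 ± 0.04, adjusted p = 0.00931 for *Tkt* and log2 fold change -0.34 ± 0.074, adjusted p = 0.0139 for *Taldo1*). Summed over the 4 genes, RNA was 238 ± 4.86 RPKM (SD, n = 2) in WT and 281 ± 0.426 RPKM in KO MSCs before induction, and 228 ± 2.84 and 204 ± 8.11 RPKM after induction.

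Markers of proliferation moved with the genotype in the same direction as the pentose phosphate sum. The 10 markers (*Mki67*, *Top2a*, *Ccnb1*, *Cdk1*, *Aurkb*, *Bub1*, *Mcm5*, *Pcna*, *Rrm2* and *Tyms*) summed to 263 to 269 RPKM in undifferentiated WT, 373 RPKM in both undifferentiated KO, 238 to 255 RPKM in differentiating WT and 117 to 143 RPKM in differentiating KO libraries. With induction in WT MSCs, 9 of the 10 fell and 1 rose, beside 32.8% and 31.6% of all tested genes. The gene that rose was *Rrm2*, a large term of the sum, from 58.0 and 61.15 to 118 and 125 RPKM. Of the 10, 6 were higher and none lower in undifferentiated KO MSCs, all 10 were lower in differentiating KO MSCs, and none was at 0. For these and the markers below, the shares of all tested genes were 14.7% higher and 17.5% lower in undifferentiated KO MSCs. In differentiating KO MSCs they were 17.8% higher and 22.9% lower. The part of the proliferation markers in the differences of the 42 genes was not tested. Macrophage and leukocyte markers summed to 17.4 to 18.5 RPKM in undifferentiated WT, 8.51 to 9.30 in undifferentiated KO, 30.02 to 34.2 in differentiating WT and 13.5 to 14.5 RPKM in differentiating KO libraries. Of the 6 that were tested, 2 were higher and 2 lower in undifferentiated and 1 was higher and 5 lower in differentiating KO MSCs. *Lyz2*, at 12.9 and 13.4 RPKM in undifferentiated WT and 3.42 and 3.19 RPKM in undifferentiated KO libraries, was the largest term of this sum, *Cd14* and *Csf1r* were the 2 that were higher in undifferentiated KO MSCs, and the defining markers *Ptprc* and *Itgam* were at most 0.127 and 0.356 RPKM. Cells carrying the proteins of *Ptprc* and *Itgam* had been removed with antibodies when the MSCs were isolated. *Itgam* was 0.293 and 0.356 RPKM in differentiating WT and 0.0399 and 0.0270 RPKM in differentiating KO libraries. Osteoblast markers summed to 1225 to 1357 RPKM in undifferentiated WT, 1513 to 1587 in undifferentiated KO, 2097 to 2320 in differentiating WT and 1169 to 1238 RPKM in differentiating KO libraries, and all 7 were lower in differentiating KO than WT MSCs. Between undifferentiated genotypes 2 of the 7 were DEGs with lower RNA in KO MSCs, beside 1.09% of all tested genes. With these, 3 of the 7 were lower and 1 was higher. The higher one was *Col1a1*, the largest term of the sum in undifferentiated libraries, at 735 and 598 RPKM in WT and 985 and 1048 RPKM in KO, while *Ibsp* was 49.5 and 51.3 RPKM in WT and 20.2 and 19.8 RPKM in KO. Endothelial markers summed to at most 4.65 RPKM, erythroid markers to at most 0.874 RPKM with the globin genes *Hbb-bs*, *Hba-a1* and *Hba-a2* at 0 in every library, and of the muscle markers only *Acta1* and *Des* were at a level that was tested.

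Further genes of the same pathways were taken from lists that share no gene with the 42, although *Pfkfb2*, *Gys1* and *Gbe1* stand in both the hypoxia and the glucose list. Like the 42 genes, these lists were chosen with earlier results of these data known, so their counts are no independent check. Of 43 other hypoxia genes tested, 24 were lower and 3 higher in undifferentiated KO than WT MSCs, with 5 DEGs lower and 1 higher, and 13 were lower and 19 higher in differentiating KO MSCs. Of all tested genes 17.5% were lower and 14.7% higher in undifferentiated, and 22.9% lower and 17.8% higher in differentiating KO MSCs. As DEGs in undifferentiated KO MSCs, 1.09% of all tested genes were lower and 0.613% higher. *Ndufa4l2*, a HIF target of the respiratory chain, was 7.06 and 6.41 RPKM in WT and 0.573 and 1.06 RPKM in KO MSCs before induction, and 8.52 and 7.05 RPKM in WT and 5.98 and 6.02 RPKM in KO MSCs after it, a log2 fold change of -2.95 ± 0.25, adjusted p = 0.000969 between the undifferentiated genotypes. *Ppp1r3c*, which targets a phosphatase to glycogen, was at 1.79 and 1.65 RPKM in undifferentiated and 6.80 and 6.30 RPKM in differentiating WT MSCs, and at 0.763 and 0.635 RPKM in undifferentiated and 9.68 and 10.5 RPKM in differentiating KO MSCs, and it was lower in undifferentiated KO MSCs (log2 fold change -1.19 ± 0.097, adjusted p = 0.000902) with an interaction of 1.81 ± 0.14, adjusted p = 0.000774. *Stc1*, the stanniocalcin gene, went the other way and was higher in undifferentiated KO MSCs (log2 fold change 1.54 ± 0.082, adjusted p = 0.000317). The interaction was positive for 22 of these 43 genes and negative for 3, beside 19.4% and 20.0% of all tested genes. With induction, *Vegfa*, the angiogenic growth factor, fell from 83.2 and 84.2 to 12.9 and 13.0 RPKM in WT MSCs (log2 fold change -2.68 ± 0.052, adjusted p = 7.56e-07) and by a log2 fold change of -1.89 in KO MSCs, and *Ak4*, a mitochondrial adenylate kinase gene, fell from 10.9 and 10.3 to 0.895 and 1.06 RPKM in WT MSCs (log2 fold change -3.32 ± 0.086, adjusted p = 1.75e-06) and by a log2 fold change of -2.94 in KO MSCs. *Hif3a*, the gene of a HIF alpha subunit that can oppose the others, was at most 0.00908 RPKM in undifferentiated libraries and between 1.73 and 2.79 RPKM in differentiating ones. *Stc2* was higher in differentiating KO than WT MSCs (log2 fold change 1.09 ± 0.15, adjusted p = 0.0037).

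Of 50 other genes of glucose metabolism, 17 were lower and 4 higher in undifferentiated KO MSCs, and 13 were lower and 13 higher in differentiating KO MSCs, beside 17.5% and 14.7% of all tested genes in the first and 22.9% and 17.8% in the second comparison. *Fbp1*, the gluconeogenic bisphosphatase gene, was the only DEG in the undifferentiated state, at 0.271 and 0.428 RPKM in WT and 0.114 and 0.0790 RPKM in KO libraries. The transporter gene *Slc2a6* was a DEG with lower RNA in differentiating KO MSCs (log2 fold change -1.14). With induction, *Pdp1*, which encodes the phosphatase that undoes the work of the Pdk enzymes, rose from 6.94 and 7.07 to 49.3 and 45.4 RPKM in WT and from 5.22 and 5.46 to 71.5 and 74.7 RPKM in KO MSCs (interaction 1.01 ± 0.071, adjusted p = 0.000662). *Ldhd*, the D-lactate dehydrogenase gene, rose and *Eno3*, the muscle enolase gene, fell in both genotypes (2.45 and 2.95 for *Ldhd*, -1.77 and -2.44 for *Eno3*). The glycogen phosphorylase gene *Pygl* had a positive interaction (1.09 ± 0.059, adjusted p = 0.000386).

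Of 8 other pentose phosphate genes, 3 were higher and 1 lower in undifferentiated KO MSCs, and 5 were higher and 1 lower in differentiating KO MSCs, where 14.7% and 17.5%, and 17.8% and 22.9%, of all tested genes were higher and lower. *H6pd*, the enzyme that runs the oxidative steps inside the endoplasmic reticulum, rose from 24.5 and 24.5 to 76.9 and 75.6 RPKM in WT and from 33.8 and 32.4 to 107 and 114 RPKM in KO MSCs with induction. *Rpia*, the ribose phosphate isomerase gene, and *Shpk*, a kinase gene that feeds the pathway, rose in both genotypes, with log2 fold changes of 1.39 in WT and 1.28 in KO MSCs for *Rpia* and 1.29 in WT and 1.63 in KO MSCs for *Shpk*. The interaction was positive for 2 and negative for 1 of these 8 genes, beside 19.4% and 20.0% of all tested genes. None of these 8 genes was a DEG between the genotypes.

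The positions of the 6 genes with an interaction above 1 are, in mm10, chr7:138890836-138909519 for *Bnip3*, chr15:66929318-66969640 for *Ndrg1*, chr2:71873224-71903858 for *Pdk1*, chr8:45996902-46005707 for *Ankrd37*, chr6:5483351-5496309 for *Pdk4* and chr11:120948480-120960868 for *Slc16a3*, all annotated as protein-coding genes whose values are summed over their exons. Of the 42 genes, *Hk1*, *Pfkm*, *Pfkp*, *Aldoa*, *Tpi1*, *Gapdh*, *G6pdx* and *Ankrd37* have exons that overlap a gene on the other strand, and *Tkt* holds *Mir3076* on its own strand. The libraries kept the strand and the alignment used it. The strand option of the counting step itself is not given in the sources used here, so whether reads of such neighbours were counted with theirs cannot be told.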

How the data were processed

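Ribosomal RNA was removed from total RNA, and the authors aligned single-end reads of 50 bases from stranded libraries to mm10 with regard to strand. The submitters' processing notes name TopHat2 2.1.0, Cufflinks 2.2.1 and Cuffdiff. The deposited RPKM values, made by the authors for each gene and library, hold 0 columns without a sample and no pooled replicates. How Cuffdiff scaled the libraries is not given in the sources used here. Of 5323 low values, 71.0% were whole reads within 0.05 reads, too few for a test of counts. The depths and a length correction were chosen to make this share largest. The 10% that chance would give at a depth not chosen in this way is therefore too low a reference. The mean chi-square per gene between the 2 libraries of a group was 13.1 to 31.3, above sampling noise, and all 8 libraries were kept as separate samples.

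From the RPKM values, 0.1 was added, log2 was taken, and the 4 group means were fitted with limma 3.58.1 (R 4.3.3) to 15342 genes, with a variance trend and Benjamini-Hochberg adjustment. The fit had 4 residual and 1.98 prior degrees of freedom and was tested on simulated data. Genotypes were compared within each state, states within each genotype, and the interaction was tested. Figures were drawn with matplotlib 3.10.9. Positions were read from GENCODE (mm10) and promoter windows from RefSeq. The 17 alternatives (16 for the interaction) changed the pseudocount, the minimum, the normalization, the variance trend, the libraries in the fit or the replicate block. The members and lists were chosen with earlier results of these data known. Every library's value is given for members that were DEGs between genotypes, had an interaction that passed, or were among the 10 largest changes with induction. From the further lists, up to 2 DEGs per direction and comparison are named, apart from 1 gene that is not reported here.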

Additional observations from a re-analysis of the deposited data

Results flagged for a closer look

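The response to induction differed between the genotypes for 26 of the 42 genes by the limma interaction (adjusted p-value under 0.05), given here as the log2 change with induction in KO minus that in WT MSCs. It was 2.65 for *Bnip3*, 2.39 for *Ndrg1*, 1.51 for *Pdk1*, 1.22 for *Ankrd37*, 1.15 for *Pdk4* and 1.05 for *Slc16a3*. Between 0.5 and 1 it was 0.72 for *Aldoc*, 0.71 for *Slc2a1*, 0.67 for *Ero1l*, 0.57 for *Eno2*, 0.56 for *Ldhb*, 0.55 for *Egln1*, 0.53 for *Slc2a3* and 0.52 for *Aldoa*. Smaller positive values were 0.37 for *Tpi1*, 0.29 for *Pfkp*, 0.21 for *Adm* and 0.16 for *Hif1a*. Negative values were -0.81 for *Pgd*, -0.55 for *Taldo1*, -0.43 for *Pkm*, -0.43 for *Pfkfb4*, -0.41 for *G6pdx*, -0.31 for *Hk1*, -0.21 for *Tkt* and -0.20 for *Gapdh*. Of the 26 calls, 18 held in every alternative in which the gene was tested, and those of *Aldoc*, *Tpi1*, *Gapdh*, *Eno2*, *Pkm*, *Tkt*, *Hif1a* and *Adm* were lost in 1 or more. All 10 proliferation markers had a negative interaction, beside 20.0% of all tested genes, whereas 18 of the 26 genes above had a positive and 8 a negative one. The part of these markers in the differences was not tested.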

How the results depend on the processing

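With a pseudocount of 1, 3 of the 42 genes were DEGs between undifferentiated genotypes in place of 5, since *Ankrd37* and *Ndrg1* fell under the fold limit. For differentiating genotypes the single DEG became 2 with a pseudocount of 0.01, and leaving out 1 library at a time gave 1 to 2 DEGs, with 2 without differentiating KO replicate 1. The 27 genes with an adjusted p-value under 0.05 there became 14 with only the 4 libraries compared in the fit, and 16 to 31 with a library left out, with 16 without differentiating WT replicate 2 and 31 without differentiating KO replicate 1. Split by direction, genes higher in undifferentiated KO MSCs numbered 5 in place of 3 without either differentiating KO library. With only the 4 libraries compared, 5 in place of 8 were higher and 9 in place of 19 lower in differentiating KO MSCs, and 10 were lower there without differentiating WT replicate 2. The DEG added between differentiating genotypes with a pseudocount of 0.01 or without differentiating KO replicate 1 was lower in KO MSCs. The 8 negative interactions became 5 with the replicate block, without a variance trend and when any 1 of the 4 undifferentiated libraries or differentiating WT replicate 2 was left out. The other counts of the 42 genes stayed within 1.5 times their values, and no called gene changed direction. *Slc16a3*, *Pdk1* and *Bnip3* stayed DEGs between undifferentiated genotypes in all 17 alternatives, as did *Ndrg1* between differentiating genotypes. Calls held in every alternative for 20 of 26 genes between undifferentiated and 14 of 27 between differentiating genotypes, for 33 of 37 with induction in WT and 39 of 40 in KO MSCs, and for 18 of 26 interactions. The calls lost in at least 1 alternative were those of *Gpi1*, *Aldoc*, *Gapdh*, *Eno2*, *Ldha* and *Pfkfb3* between undifferentiated genotypes, and of *Slc2a4*, *Slc16a1*, *Pgk1*, *Pkm*, *Pfkfb4*, *Pdk2*, *Pdk3*, *Pdk4*, *Tkt*, *Taldo1*, *Egln1*, *Car12* and *Ero1l* between differentiating ones. With induction they were those of *Ldhb*, *Taldo1*, *Bnip3* and *Car12* in WT and *Aldoc* in KO MSCs, and for the interaction *Aldoc*, *Tpi1*, *Gapdh*, *Eno2*, *Pkm*, *Tkt*, *Hif1a* and *Adm*.

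Median centring moved the median of all genes by -0.10 with induction in WT MSCs, and the counts of DEGs among the 42 were then 16 that fell and 5 that rose. Replicate numbers did not pair the libraries (correlations of deviations from -0.092 to 0.030). With the replicate block, the counts of DEGs stayed at 5, 1, 20, 19 and 6 over the 5 comparisons, and 24, 24, 36, 39 and 21 genes had an adjusted p-value under 0.05, in place of 26, 27, 37, 40 and 26. A library left alone in its group was assumed to vary like the others. Groups of 2 libraries do not allow a search for outliers, and differences near 0.2 on the log2 scale (*Gapdh*, *Slc16a1*, *Ero1l*, *Bnip3* with induction in WT MSCs) were called in some settings only.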
